A study of Mus musculus with 10 samples.

Results

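The clustered histone genes of the mouse are the genes named Hist1h, Hist2h, Hist3h and Hist4h in the deposited table. All rows whose symbol began in that way were taken, apart from symbols marked -ps, which gave 69 of the 54532 genes listed. GENCODE types 67 of them as protein-coding, and Hist1h2aj and Hist1h2al, read at means of 0.599 and 0.516 normalized counts, as pseudogenes. They comprised 6 linker histone H1 genes, 20 H2A genes (both pseudogenes among them), 18 H2B genes, 12 H3 genes and 13 H4 genes. By the cluster in the symbol, 56 belonged to Hist1 on chromosome 13, 10 to Hist2 on chromosome 3, 2 to Hist3 on chromosome 11 and 1 to Hist4 on chromosome 6 (GRCm38, GENCODE). The pseudogene Hist1h2al, at chr13:51202727-51203065, lies apart from the other Hist1 members. The 10 RNA-seq libraries came from primary peritoneal macrophages, the resident phagocytes of the abdominal cavity, and formed 3 groups. The groups were aged mice with the genotype Trem1-/- (n = 3, replicates 1, 2 and 3), aged wild-type mice (n = 3, replicates 3, 4 and 6) and young wild-type mice (n = 4, replicates A, B, C and E). Trem1 encodes a receptor of myeloid cells that amplifies inflammatory signalling, and the study asked how its deletion bears on gene expression during ageing. No young Trem1-/- group, age in months, sex, mouse strain, sorting step or origin from separate mice was given, so p-values measure the spread between these libraries, which may be technical.

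Core histones H2A, H2B, H3 and H4 form the protein spool of the nucleosome, and H1 binds the DNA that enters and leaves it. Most clustered histone genes are transcribed in S phase, when newly copied DNA has to be packaged, and their mRNA ends in a stem-loop instead of a poly(A) tail. Stem-loop binding protein and the U7 snRNP make that end. Some of these genes can also give polyadenylated mRNA from sites further downstream, a form known from differentiated and resting cells. The labels name total RNA, an mRNA template for cDNA synthesis and the library kits, but not whether RNA without a poly(A) tail was primed, so how the values divide between both kinds of end is unknown.

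The stem-loop is shown first because it is the sequence that sets these genes apart. The letters GG, CTTTT, AG and CC, in that order and parted by 2, 1 and 2 free bases, were searched on the sense strand in the 150 annotated transcript bases after each stop codon. They were found in 44 of the 69 members, starting 21 to 58 bases after the stop codon. Where the annotation held at least 70 bases after the stop codon, 40 of 46 members had them, against 4 of the other 23, which have a shorter annotated end or, as the pseudogenes, no annotated stop codon. Outside the clustered genes the letters stood in 3 of 21799 protein-coding genes (0.0138%), namely H2afx, H2bfm and Lrrc75b. The sequences below are written 5′ to 3′ on the strand of the gene, with the 16 bases of the pattern in capitals.
Hist1h1c: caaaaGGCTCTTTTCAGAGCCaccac
Hist1h2bm: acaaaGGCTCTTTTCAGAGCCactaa
Hist1h2bb: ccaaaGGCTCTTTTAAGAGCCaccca
Hist1h4d: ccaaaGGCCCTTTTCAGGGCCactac
Hist1h4j: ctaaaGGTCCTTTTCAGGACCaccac
Hist1h4i: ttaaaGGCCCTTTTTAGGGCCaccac
Hist2h2ac: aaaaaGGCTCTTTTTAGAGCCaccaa
On GRCm38 the capitals lie at chr13:23739512-23739527 (plus strand) in Hist1h1c, the linker histone gene with the highest level here, and at chr13:21722506-21722521 (plus strand) in Hist1h2bm. They lie at chr13:23747203-23747218 (plus strand) in Hist1h2bb, at chr13:23581950-23581965 (plus strand) in Hist1h4d and at chr13:21735437-21735452 (plus strand) in Hist1h4j. In Hist1h4i they lie at chr13:22040966-22040981 and in Hist2h2ac at chr3:96220418-96220433, both on the minus strand. The 44 members carried 6 forms of the hairpin. The form of Hist1h1c and Hist1h2bm was found in 26 members, that of Hist1h4d in 7, that of Hist1h2bb in 6, those of Hist1h4i and Hist1h4j in 2 each and that of Hist2h2ac in 1. All 7 members with the Hist1h4d form encode H4.

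Promoters were compared because members of several classes moved together. RefSeq gave a promoter, 250 bases before to 50 after the gene start on GRCm38.p6, for 62 of the 69 members. The letters TATAAA, the core of the TATA box, stood on either strand in 35 of the 62 (56.5%) and in 13.6% of 32851 promoters of all genes. CCAAT, the box read by NF-Y, stood in 53 (85.5%), against 37.4% of all promoters, and only 3 of 12 H4 promoters held it. The octamer ATTTGCAT, which Oct1 (Pou2f1) reads in H2B promoters, stood in 13 (21%), against 1.74% of all promoters. These 13 were 7 H2A and 6 H2B promoters. Promoters of neighbouring genes on opposite strands can overlap, as for Hist1h2ae with Hist1h2bg and Hist1h2ah with Hist1h2bk. The same site can then count for both genes, so the counts of all these motifs are not of separate sites. No match of one motif overlapped a match of another in these promoters. The 120 bases before the RefSeq gene start are printed for the most abundant H1 gene, for an H1 gene that fell in aged wild-type libraries and for an H2B gene that fell in both aged groups, with matches on either strand in capitals.
Hist1h1c: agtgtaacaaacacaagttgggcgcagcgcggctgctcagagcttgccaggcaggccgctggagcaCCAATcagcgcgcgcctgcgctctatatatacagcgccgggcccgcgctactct
Hist1h1b: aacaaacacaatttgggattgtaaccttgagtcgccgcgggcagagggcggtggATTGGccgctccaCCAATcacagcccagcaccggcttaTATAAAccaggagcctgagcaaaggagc
Hist1h2bm: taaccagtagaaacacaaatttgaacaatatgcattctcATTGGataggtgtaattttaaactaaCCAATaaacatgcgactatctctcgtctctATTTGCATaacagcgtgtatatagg
On GRCm38.p6 these lie at chr13:23738687-23738806 (plus strand) for Hist1h1c, chr13:21780626-21780745 (minus strand) for Hist1h1b and chr13:21721924-21722043 (plus strand) for Hist1h2bm. ATTGG in them is CCAAT read on the other strand.

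The libraries held 2663744 to 5603498 reads assigned to genes, and the clustered histone genes took 0.111% to 0.336% of them. Trem1 was read in all 10 libraries, at 23.5, 106 and 13.8 normalized counts in the libraries labelled Trem1-/-, at 64.0, 15.3 and 27.0 in aged wild-type libraries and at 14.8, 8.0, 12 and 24.4 in young wild-type libraries. It was therefore not lower in the libraries labelled Trem1-/-, and the genotype is used below as labelled, without a check by these reads. The macrophage label was met by 10 listed markers, among them Adgre1, Csf1r and Lyz2, none of which was at 0 in any library. Their summed level was 74657 to 94633 normalized counts in libraries labelled Trem1-/-, 26182 to 42522 in aged wild-type libraries and 85386 to 93397 in young wild-type libraries. Summed B cell markers stood at 6789 to 14054 in libraries labelled Trem1-/-, at 14807 to 23909 in aged wild-type libraries and at 2718 to 5945 in young wild-type libraries. The share of reads on the long non-coding RNA gene Gm26917 was 8.38% to 12.9% in aged wild-type libraries and 5.0% to 5.70% in the other 7, and that of mitochondrial genes was 3.17% to 5.26% in aged wild-type libraries and 1.19% to 2.39% in the other 7.

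The 6 linker histone genes took 52.1% of the normalized counts of all members over the 10 libraries, before any allowance for gene length. Per kilobase of annotated exon, the mean over all libraries was highest for Hist1h1c (1049 normalized counts per kilobase), followed by Hist1h1e (453), Hist1h2bn (355), Hist1h4d (338), Hist1h2bb (307) and Hist1h1b (282). This order depends on uneven annotation. Hist1h2bn and Hist1h1b have no annotated base after the stop codon. Hist1h1d, at a mean of 735 normalized counts, is annotated for 7425 bases, 4884 of them past the stem-loop, and so came to 98.9 per kilobase. The 5 members of Hist1h1a to Hist1h1e encode the H1 variants of somatic cells, while Hist1h1t, the testis H1 gene, averaged 0.863 normalized counts. Of the 69 members, 47 averaged at least 10 normalized counts over the 10 libraries and were tested. Another 16 were read at means of 0.115 to 7.51, and 6 had no read: Hist1h2aa, Hist2h2aa1, Hist2h2aa2, Hist2h2bb, Hist2h3b and Hist2h3c1. Hist1h2aa, with no read, and Hist1h2ba, at a mean of 0.115, encode histones of the testis. Hist2h2aa2 and Hist2h3c1 shared every run of 50 bases with another gene. Hist2h2aa1, Hist2h3b and Hist2h2bb shared 89.4%, 79.7% and 53.6% of theirs with other genes. Annotated exons of all 5 overlap other genes, so a count of 0 there does not separate silence from reads that could not be placed. For a gene with no read, a count of 3 reads would have been 1.85 to 3.84 normalized counts in these libraries.

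Aged wild-type libraries held less RNA from most clustered histone genes than young wild-type libraries. On log2(normalized count + 1), limma called 35 of the 47 tested members lower (74.5%, adjusted p under 0.05), where 19.0% of the 11506 genes tested were lower. No member was called higher by limma, at an unadjusted p under 0.05, or by edgeR or DESeq2 on the recovered reads, where 14.3% of all genes were higher by limma. The median log2 fold change of the members was -1.29, beside -0.020 for all genes tested. Every aged wild-type library stood below every young library for 32 of the 47 members, as for 21.9% of all genes. Since these are bulk libraries, fewer cells that make histone mRNA and less of it per cell cannot be told apart. The tested members Hist1h3g, Hist1h3h and Hist1h2ao averaged under 10 normalized counts in aged wild-type libraries and so entered the test through the other groups. Of the other 44, 32 were lower. Of the 16 members with reads under the limit, 14 had a lower mean in aged wild-type than in young libraries.

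**Figure D1:**
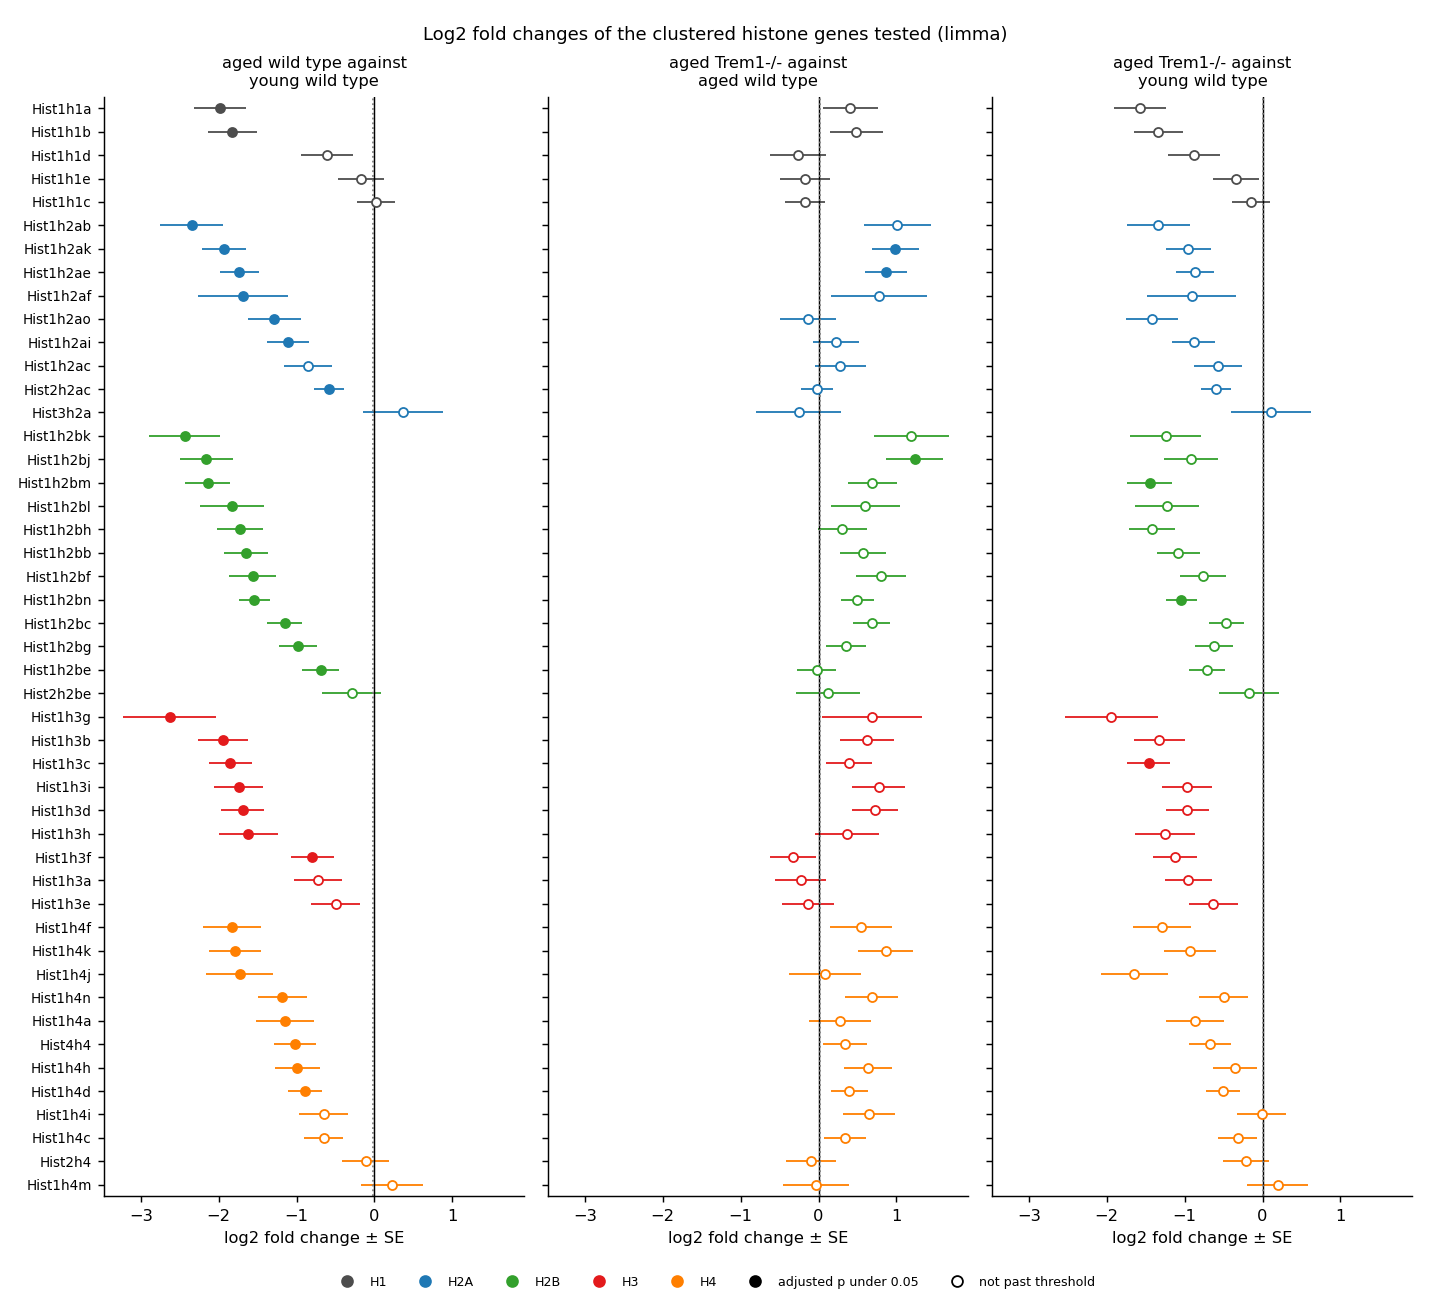
Log2 fold change ± SE (x axis) of each of the 47 tested clustered histone genes (rows, coloured by histone class) in 3 comparisons, with filled points for a limma adjusted p under 0.05 and a dotted line at the median of all genes. Filled points lie left of 0 for 35 genes in aged wild-type against young libraries, while 3 genes are filled in each of the other panels.

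Of the 5 linker histone genes tested 2, Hist1h1a and Hist1h1b, were lower in aged wild-type than in young libraries. Hist1h1a had 72.5, 36.9 and 50.5 normalized counts in libraries labelled Trem1-/-, 34.6, 41.5 and 39.5 in aged wild-type libraries and 127, 102, 142 and 313 in young libraries. Hist1h1b had 156, 123 and 116 normalized counts in libraries labelled Trem1-/-, 137, 56.7 and 103 in aged wild-type libraries and 306, 217, 337 and 543 in young libraries. No aged library of either gene reached the lowest young one. Hist1h1a fell by 1.99 on the log2 scale in aged wild-type against young libraries (SE 0.33, limma adjusted p = 0.0012), and Hist1h1b fell by 1.83 (SE 0.32, limma adjusted p = 0.00135). H1b is known as an H1 of dividing cells. Neither transcript shared a run of 50 bases with another gene.

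Hist1h1c, Hist1h1d and Hist1h1e did not pass the test. H1c and H1e, 2 of their products, are known to be made in resting cells as well. Hist1h1c had 1594, 1172 and 1706 normalized counts in libraries labelled Trem1-/-, 2519, 1149 and 1586 in aged wild-type libraries and 1812, 1289, 1496 and 2044 in young libraries. Hist1h1e had 755, 589 and 887 normalized counts in libraries labelled Trem1-/-, 1431, 499.8 and 787 in aged wild-type libraries and 1025, 699, 887 and 1179.6 in young libraries. For both genes aged wild-type replicate 3 was the highest of all 10 libraries and replicate 4 the lowest. Hist1h1d had 572, 385 and 570.1 in libraries labelled Trem1-/-, 1092, 352 and 566 in aged wild-type libraries and 975, 647, 850.2 and 1337 in young libraries. Aged wild-type and young libraries overlapped for all 3 genes, while every library labelled Trem1-/- was below every young library for Hist1h1d. The log2 fold changes of aged wild-type over young libraries were 0.023 ± 0.24 for Hist1h1c, -0.17 ± 0.30 for Hist1h1e and -0.61 ± 0.34 for Hist1h1d (SE, limma adjusted p = 0.951, 0.691 and 0.183). Without aged wild-type replicate 3 the value was -0.28 for Hist1h1c and -1.04 for Hist1h1d, and Hist1h1d was then called lower (limma adjusted p = 0.0214). Annotated exons of Hist1h1e overlap those of Hist1h2be and of Gm11398 on the same strand, and reads there cannot be given to one of them.

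**Figure D2:**
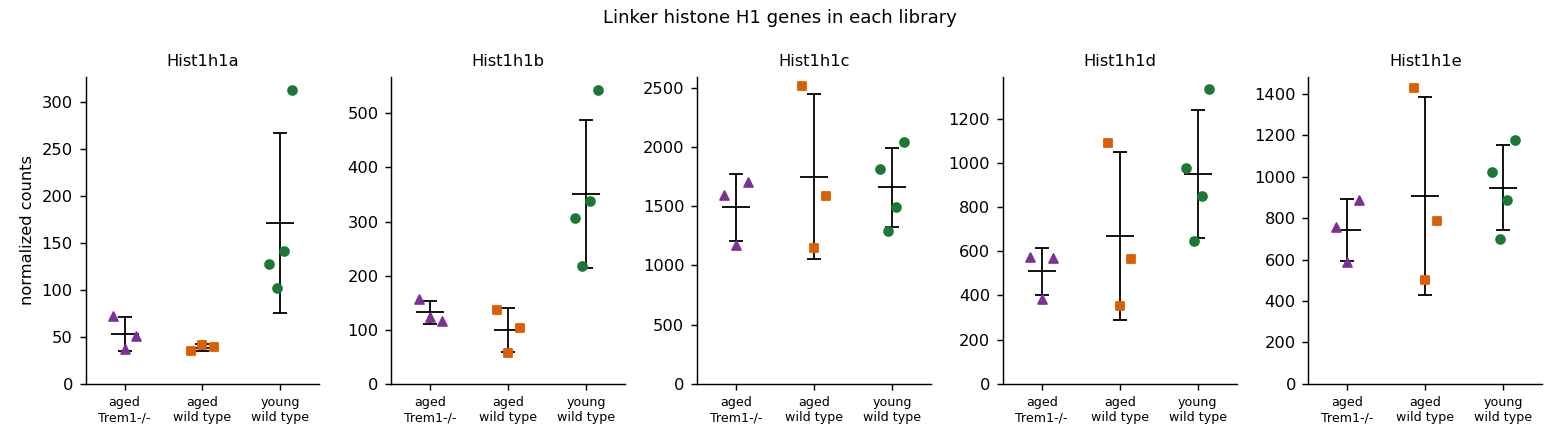
Normalized counts (y axis, from 0) of 5 linker histone H1 genes in each library, with 1 point per library and bars for the group mean ± SD (n = 3, 3 and 4). Hist1h1a and Hist1h1b lie lower in both aged groups than in young libraries, while aged wild-type and young libraries overlap for Hist1h1c, Hist1h1d and Hist1h1e.

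The make-up of the histone signal differed with the group. Hist1h1c, Hist1h1d and Hist1h1e together took 47.5% to 52.0% of the normalized counts of all clustered histone genes in libraries labelled Trem1-/-, 52.0% to 69.2% in aged wild-type libraries and 37.0% to 45.4% in young libraries. The lowest aged library stood above the highest young one. The 63 core histone genes summed to 2591 ± 327 normalized counts in libraries labelled Trem1-/- (SD, n = 3), to 1985 ± 206 in aged wild-type libraries (SD, n = 3) and to 4719.8 ± 1649 in young libraries (SD, n = 4). The ratio of the aged wild-type mean to the young mean was 0.421 for the core histone genes and 0.848 for the H1 genes. By class it was 0.358 for H2A, 0.375 for H2B, 0.412 for H3 and 0.50 for H4. Among young libraries replicate E was the highest and replicate B the lowest in each core class, with core sums of 6798 and 2853.

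**Figure D3:**
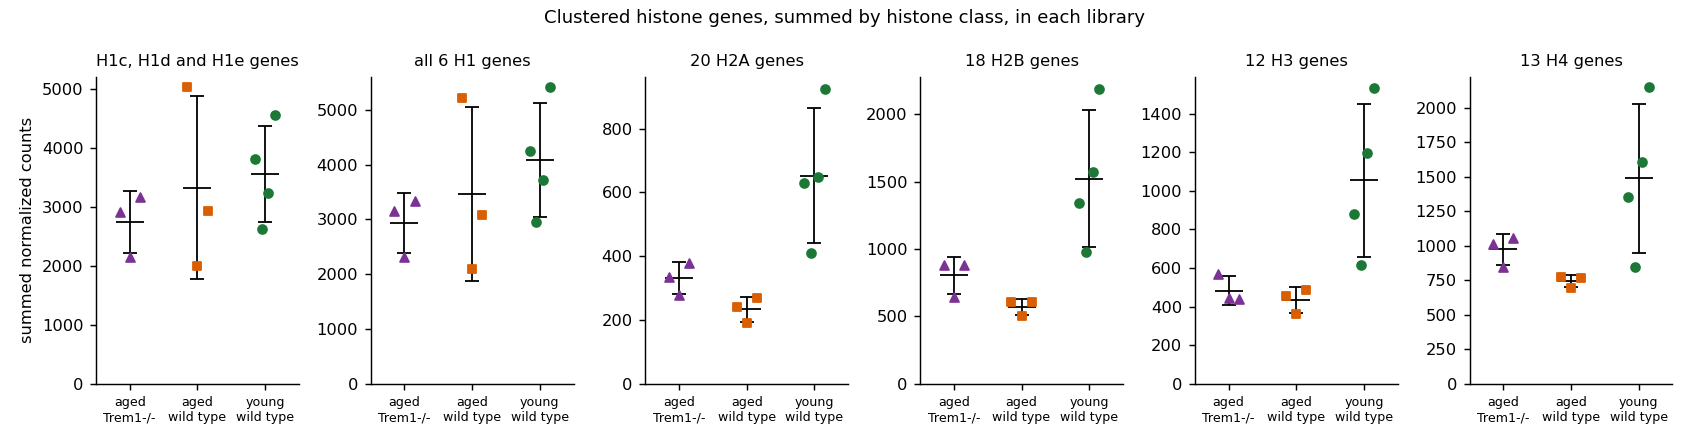
Summed normalized counts (y axes, from 0, scaled by panel) of the clustered histone genes by class in each library, with 1 point per library and bars for the group mean ± SD (n = 3, 3 and 4). The H2A, H2B, H3 and H4 sums of all aged wild-type libraries lie below every young library, and the sum of Hist1h1c, Hist1h1d and Hist1h1e overlaps between all 3 groups.

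H2A and H2B form the outer dimers of the nucleosome, and their genes often stand as divergent pairs. Of 9 H2A genes tested 7 were lower in aged wild-type libraries. Hist1h2ab had 52.1, 45.7 and 75.7 normalized counts in libraries labelled Trem1-/-, 37.1, 13.1 and 42.2 in aged wild-type libraries and 125, 91.7, 153 and 248 in young libraries. Hist1h2ak had 77.7, 56.1 and 68.8 normalized counts in libraries labelled Trem1-/-, 30.7, 30.6 and 39.5 in aged wild-type libraries and 135, 73.9, 137 and 210.4 in young libraries. Both were lowest in aged wild-type libraries, with no overlap with young libraries, and Hist1h2ab fell by 2.35 on the log2 scale (SE 0.40, limma adjusted p = 0.00129). Hist1h2ak fell by 1.93 (SE 0.28, limma adjusted p = 0.00061). Hist1h2ae, with 34.7, 33.6 and 44.7 normalized counts in libraries labelled Trem1-/-, 17.9, 18.6 and 24.3 in aged wild-type libraries and 65.4, 45.0, 85.3 and 90.7 in young libraries, fell by 1.73 (SE 0.25, limma adjusted p = 0.000551). All 3 genes overlap a predicted gene on the other strand over 138 bases (Gm44484, Gm44454 and Gm44394), and whether counting used the strand was not given. Of the 50-base runs of Hist1h2ab, Hist1h2ak and Hist1h2ae 58.0%, 52.3% and 43.2% also stood in other genes. The members of the class that did not pass were Hist1h2ac, at -0.85 ± 0.31 (SE, limma adjusted p = 0.0524), and Hist3h2a of the Hist3 cluster, at 0.37 ± 0.51 (SE, limma adjusted p = 0.619).

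Of 12 H2B genes tested 11 were lower in aged wild-type libraries, the exception being Hist2h2be at -0.29 ± 0.38 (SE, limma adjusted p = 0.59). Hist1h2bb had 123, 84.1 and 132 normalized counts in libraries labelled Trem1-/-, 88.3, 56.7 and 81.8 in aged wild-type libraries and 196, 154, 270.2 and 375 in young libraries. Hist1h2bc had 136, 121 and 153 normalized counts in libraries labelled Trem1-/-, 74.2, 90.6 and 88.9 in aged wild-type libraries and 183, 125, 189.7 and 288 in young libraries. In both genes the aged wild-type libraries stood below all young ones. Hist1h2bb fell by 1.65 (SE 0.28, limma adjusted p = 0.00129) and Hist1h2bc by 1.15 (SE 0.22, limma adjusted p = 0.00266). Hist1h2be had 116, 97.7 and 131 normalized counts in libraries labelled Trem1-/-, 116, 106 and 127 in aged wild-type libraries and 186, 115, 222 and 264 in young libraries, so the groups overlapped through young replicate B. It fell by 0.69 (SE 0.23, limma adjusted p = 0.0395), and that call was lost in 8 of the alternatives, with adjusted p up to 0.103.

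The largest changes among the H2B genes were those of 3 genes of the Hist1 cluster. Hist1h2bk had 39.8, 28.0 and 25.2 normalized counts in libraries labelled Trem1-/-, 6.40, 12 and 26.1 in aged wild-type libraries and 56.6, 46.8, 70.9 and 153 in young libraries. Hist1h2bj had 57.2, 26.4 and 42.4 normalized counts in libraries labelled Trem1-/-, 21.8, 14.2 and 14.4 in aged wild-type libraries and 68.9, 45.0, 90.1 and 124 in young libraries. Hist1h2bm had 29.6, 19.2 and 22.9 normalized counts in libraries labelled Trem1-/-, 12.8, 13.1 and 17.1 in aged wild-type libraries and 62.8, 40.0, 76.9 and 98.8 in young libraries. All 3 had every aged wild-type library below every young one. Against young libraries, aged wild-type libraries fell by 2.43 (SE 0.45, limma adjusted p = 0.00207) for Hist1h2bk, by 2.16 (SE 0.34, limma adjusted p = 0.00093) for Hist1h2bj and by 2.14 (SE 0.29, limma adjusted p = 0.000431) for Hist1h2bm. Of the 50-base runs of these transcripts 74.2%, 59.4% and 43.8% also stood in other genes, most often in Hist1h2bq, so the reads of single H2B genes are less certain than those of the class.

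H3 and H4 form the tetramer at the centre of the nucleosome. Of 9 H3 genes tested 7 were lower in aged wild-type libraries, and Hist1h3a (-0.72 ± 0.30 SE, limma adjusted p = 0.0884) and Hist1h3e did not pass. Hist1h3e had 175, 127 and 143 normalized counts in libraries labelled Trem1-/-, 177, 125 and 191 in aged wild-type libraries and 219, 116, 317 and 339 in young libraries. Its groups overlapped, and the log2 fold change was -0.50 ± 0.31 (SE, limma adjusted p = 0.246). Without young replicate B it was -0.82 and was called lower (limma adjusted p = 0.0144). Of the 50-base runs of Hist1h3e 73.4% also stood in other genes, most often in Hist1h3f. Hist1h3b had 74.6, 69.7 and 61.9 normalized counts in libraries labelled Trem1-/-, 28.2, 46.9 and 64.7 in aged wild-type libraries and 126, 118, 217 and 279 in young libraries. Hist1h3c had 45.0, 45.7 and 35.6 normalized counts in libraries labelled Trem1-/-, 21.8, 36.0 and 40.4 in aged wild-type libraries and 115, 73.9, 128 and 169.7 in young libraries. Neither gene overlapped between aged and young libraries, and they fell by 1.95 (SE 0.32, limma adjusted p = 0.00109) and by 1.85 (SE 0.28, limma adjusted p = 0.000707). Hist1h3g, with 12.3, 8.01 and 4.59 normalized counts in libraries labelled Trem1-/-, 1.28, 5.46 and 9.88 in aged wild-type libraries and 39.2, 12.9, 39.6 and 54.6 in young libraries, had the largest change of the tested members, 2.63 lower (log2 fold change -2.63, SE 0.60, limma adjusted p = 0.006). It is also among the genes that passed the limit through their young level. Of the 50-base runs of Hist1h3b, Hist1h3c and Hist1h3g 60.4%, 47.0% and 54.05% also stood in other genes.

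Of 12 H4 genes tested 8 were lower in aged wild-type libraries. Hist1h4d had 381, 297 and 356 normalized counts in libraries labelled Trem1-/-, 268, 256 and 257 in aged wild-type libraries and 429, 331, 520.0 and 754 in young libraries. It fell by 0.90 (SE 0.22, limma adjusted p = 0.00865), with all aged wild-type libraries below all young ones. Hist1h4f had 67.4, 36.1 and 59.6 normalized counts in libraries labelled Trem1-/-, 26.9, 30.6 and 55.7 in aged wild-type libraries and 128, 67.1, 159.7 and 208 in young libraries, and fell by 1.83 (SE 0.37, limma adjusted p = 0.00319). Hist1h4c had 151, 136 and 177 in libraries labelled Trem1-/-, 145, 119 and 104 in aged wild-type libraries and 178, 118, 225 and 287 in young libraries. It overlapped through young replicate B, and its log2 fold change of -0.65 ± 0.25 did not pass (SE, limma adjusted p = 0.064). It was called lower by DESeq2 on the recovered reads (adjusted p = 0.0402) and by limma without young replicate B (-0.89, adjusted p = 0.00672). The other H4 genes that did not pass were Hist1h4i (-0.65 ± 0.31), Hist2h4 (-0.11 ± 0.30) and Hist1h4m (0.22 ± 0.39; SE, limma adjusted p = 0.131, 0.796 and 0.698). Of the 50-base runs of Hist1h4m 89.8% also stood in other genes, most often in Hist1h4n. All H4 genes encode nearly the same protein.

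The members also differed by how far their annotated transcripts run on past the stem-loop printed above. Of 16 tested members annotated for over 300 bases past it, 7 were lower in aged wild-type libraries (43.8%, beside 19.0% of all genes). Of these 16, 14 had a negative log2 fold change, and the median was -0.67. Of 17 members annotated for 300 bases or fewer, 15 were lower, with a median of -1.65. Of 14 members without the pattern in the annotated window, 13 were lower, with a median of -1.72. Hist1h1c, Hist1h1d and Hist1h1e, annotated for 840, 4884 and 1153 bases past it, belong to the first set, as do Hist1h4d (770) and Hist1h2be (1861). Hist1h1a and Hist1h1b belong to the last set, with 48 and 0 annotated bases after the stop codon. Hist1h2bh (1214 bases past it, -1.73 ± 0.30 SE) and Hist1h3d (752 bases, -1.69 ± 0.28 SE) had long ends and were lower (limma adjusted p = 0.00132 and 0.00108). The division at 300 bases was chosen after the values were seen and is a description, and no test of the difference between the sets was made. The sets also differ in class and in shared sequence: 16 of 18 tested members with over 50% of their 50-base runs in other genes were lower, against 19 of 29 with 50% or fewer.

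**Figure D4:**
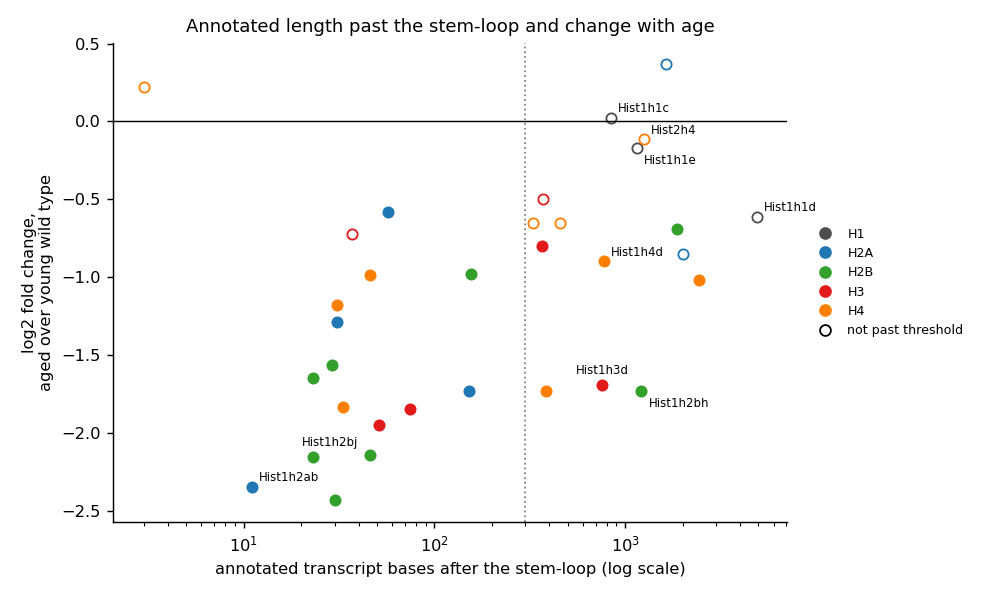
Annotated transcript bases after the stem-loop (x axis, log scale) and log2 fold change of aged wild-type over young libraries (y axis) for the 33 tested members with a stem-loop, coloured by class, filled where the limma adjusted p was under 0.05. Right of the dotted line at 300 bases 7 of 16 points are filled, against 15 of 17 to its left.

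Histone variants encoded outside the clusters have mostly polyadenylated mRNA. Of 9 tested, 3 were lower in aged wild-type than in young libraries (33.3%, beside 19.0% of all genes), and the other 6 did not pass. H2afz, a replacement H2A, averaged 378 ± 57.7 normalized counts in libraries labelled Trem1-/-, 266 ± 44.0 in aged wild-type libraries and 546 ± 91.3 in young libraries (SD, n = 3, 3 and 4). It fell by 1.03 in aged wild-type against young libraries (SE 0.16, limma adjusted p = 0.000844). H2afx, the damage-marking H2A that carries the same stem-loop letters, fell by 1.35 (SE 0.27, limma adjusted p = 0.00324), and H1f0, the H1 of resting cells, fell by 0.85 (SE 0.19, limma adjusted p = 0.00548). The median of the 9 was -0.013. The count for this list was not tested against that for the clustered genes.

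Of 20 tested genes that transcribe histone genes or process their mRNA, 3 rose and 2 fell in aged wild-type libraries, where 14.3% of all genes rose and 19.0% fell. Their log2 fold change was negative for 15 and positive for 5, with a median of -0.13. Pou2f1, the octamer factor named above, averaged 187 ± 55.0 normalized counts in libraries labelled Trem1-/-, 426 ± 192 in aged wild-type libraries and 172 ± 25.3 in young libraries (SD, n = 3, 3 and 4). It rose by 1.22 in aged wild-type against young libraries (SE 0.27, limma adjusted p = 0.00555). Cstf2, a cleavage factor shared by both kinds of mRNA end, rose by 0.55 (SE 0.13, limma adjusted p = 0.00755), and Snrpb, an Sm protein of spliceosomal and U7 particles, fell by 0.45 (SE 0.10, limma adjusted p = 0.00714). Of 23 histone chaperones and related genes 4 were higher (17.4%) and 4 lower (17.4%), with a median of -0.22. Beside 14.3% and 19.0% of all genes, the counts are no result about these 23 genes. Among them Asf1b, which hands H3 and H4 on at replication forks, fell by 1.76 (SE 0.33, limma adjusted p = 0.00204), Hjurp, the chaperone of centromeric H3, fell by 0.99 (SE 0.15, limma adjusted p = 0.000749), and Nap1l1, a chaperone of H2A and H2B, rose by 0.67 (SE 0.13, limma adjusted p = 0.0027).

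Most genes of DNA replication and S phase fell in the same comparison. Of 19 tested, 13 were lower in aged wild-type libraries (68.4%, beside 19.0% of all genes) and the other 6 did not pass, with a median of -0.82. Their summed level was 1473 to 1541 normalized counts in libraries labelled Trem1-/-, 1428 to 1645 in aged wild-type libraries and 1938 to 3803 in young libraries, with young replicate E highest and B lowest as for the core histones. Tyms, the thymidylate synthase, fell by 1.68 (SE 0.30, limma adjusted p = 0.00168), Pola1, the catalytic subunit of the polymerase that primes replication, fell by 1.37 (SE 0.25, limma adjusted p = 0.00174), and Mcm3, of the replicative helicase, fell by 0.99 (SE 0.19, limma adjusted p = 0.00269). The ratio of the aged wild-type mean to the young mean of the summed level was 0.552, beside 0.421 for the core histone genes.

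Markers of cell types moved in the same comparison. All 10 macrophage markers were lower in aged wild-type than in young libraries, beside 19.0% of all genes. The ratio of the summed level of these markers was 0.393. Higher were 12 of 13 B cell markers, 7 of 7 tested T and NK cell markers, 5 of 5 tested erythroid markers and 2 of 4 tested mesothelial markers. Of all genes 14.3% were higher. The summed ratios were 4.26 for B cell, 3.94 for T and NK cell and 9.85 for mesothelial markers. Most of the T and NK cell sum was Cd2, at 537 ± 106 normalized counts in aged wild-type libraries and 153 ± 44.7 in young libraries (SD, n = 3 and 4). Summed erythroid markers were 529.9, 23701 and 473 normalized counts in aged wild-type libraries and 105, 82.5, 751 and 9.30 in young libraries, so that replicate 4 held most of them. The 5 mast cell markers tested did not pass, and the single neutrophil marker tested, Csf3r, was lower. The other listed neutrophil markers averaged only 0.128 to 9.79 normalized counts, so Csf3r, at 627, is not read here as a sign of neutrophils. A count of 0 in at least 1 library was seen for 3 T and NK cell, 3 erythroid, 1 mast cell, 4 neutrophil and 5 mesothelial markers, and for no macrophage or B cell marker. The Gm26917 and mitochondrial shares given above were also higher in all 3 aged wild-type libraries than in any young one. What part these markers and shares had in the histone values was not tested.

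The core histone genes summed to 2215 to 2802 normalized counts in aged libraries labelled Trem1-/- and to 1749 to 2133 in aged wild-type libraries, but few genes passed the test. Of the 47 members, 3 were higher (6.38%), fewer than the 11.5% of all genes called higher, so the count is no result about the histone genes. No member was called lower by limma, at an unadjusted p under 0.05, or by edgeR or DESeq2, where 6.82% of all genes were lower by limma. The 3 were Hist1h2bj, with a log2 fold change of 1.24 ± 0.37, Hist1h2ak, with 0.98 ± 0.30, and Hist1h2ae, with 0.87 ± 0.27 (SE, limma adjusted p = 0.0383, 0.0432 and 0.0427). Each stood higher in all 3 libraries labelled Trem1-/- than in any aged wild-type library, by the values given above. With edgeR on the recovered reads none of the 3 passed. Without young replicate E 6 members passed, without young replicate B 5, without the Trem1-/- replicate 2 or aged wild-type replicate 6 1 each, and without any other single library none. Every library labelled Trem1-/- was above every aged wild-type library for 15 of the 47 members, beside 19.4% of all genes.

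The median log2 fold change of the members was 0.40 in this comparison, beside 0.0185 for all genes tested, and 35 of the 47 had a positive value. The ratio of the means, Trem1-/- over aged wild type, was 1.42 for summed H2A, 1.41 for H2B, 1.11 for H3 and 1.31 for H4 genes. For the H1 genes it was 0.845, with 2306 to 3330.03 normalized counts in libraries labelled Trem1-/- and 2099.5 to 5213 in aged wild-type libraries, so the groups overlapped. Hist1h1c, Hist1h1d and Hist1h1e had log2 fold changes of -0.18 ± 0.26, -0.27 ± 0.36 and -0.17 ± 0.32, which turned to 0.12, 0.16 and 0.23 without aged wild-type replicate 3 (SE, limma adjusted p = 0.676, 0.641 and 0.742 with it). Of the S phase genes 1 of 19, Tyms, was higher (1.09 ± 0.32 SE, limma adjusted p = 0.0366). That is 5.26%, fewer than the 11.5% of all genes called higher, so the count is no result about the S phase genes. The ratio of their summed level was 1.0. Pou2f1 was lower by 1.13 (log2 fold change -1.13, SE 0.29, limma adjusted p = 0.0223). Macrophage markers were higher for 9 of 10, with a summed ratio of 2.38, and B cell markers were lower for 4 of 13, with a summed ratio of 0.513. Of all genes 11.5% were higher and 6.82% lower. All 5 tested erythroid markers were lower, with a summed ratio of 0.0039 in which aged wild-type replicate 4 held most of the aged wild-type sum. Lower too were 5 of 7 T and NK cell markers and 1 of 4 mesothelial markers, with summed ratios of 0.569 and 0.25. Most of the T and NK cell sum was Cd2, at 400 ± 57.1 normalized counts in libraries labelled Trem1-/- and 537 ± 106 in aged wild-type libraries (SD, n = 3 each). The median log2 fold change of the 7 T and NK cell markers was -2.01. Csf3r was higher, which is not read as a sign of neutrophils for the reason given above, and the 5 mast cell markers did not pass. What part the cell markers had in these values was not tested.

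Against young libraries, most fold changes of the aged libraries labelled Trem1-/- were negative, with few calls. Of the 47 members 3 were lower (6.38%), where 0.330% of all genes were lower and 0.921% were called in either direction. No member was higher by limma, at an unadjusted p under 0.05, or by edgeR or DESeq2, where 0.591% of all genes were higher by limma. The 3 were Hist1h2bm (-1.45 ± 0.29), Hist1h3c (-1.46 ± 0.28) and Hist1h2bn (-1.04 ± 0.20; SE, limma adjusted p = 0.0449, 0.0388 and 0.0388). Hist1h2bn had 106, 98.5 and 91.8 normalized counts in libraries labelled Trem1-/- and 189, 156, 192 and 307 in young libraries, with no overlap. Of its 50-base runs 86.5% also stood in other genes, which limits a reading of this single gene. The median of the 47 was -0.91, beside 0.0088 for all genes, 45 had a negative value, and every library labelled Trem1-/- was below every young library for 20, beside 7.72% of all genes. No member had every library labelled Trem1-/- above every young one, as 8.05% of all genes did. At an unadjusted p under 0.05, 33 members were lower, but the share of all genes at that threshold was not counted, so this count has no background. The count of 3 moved widely: DESeq2 called 16, and leaving out 1 library gave 12 without young replicate B, 8 and 7 without aged wild-type replicates 4 and 3, 1 without young replicate E and none without any of the other 6 libraries. The calls of Hist1h2bm and Hist1h3c were each lost in 8 of the alternatives, with limma adjusted p up to 0.151 and 0.150.

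The summed core histone level was 0.549 of the young mean in libraries labelled Trem1-/-, and that of the S phase genes was 0.555. In this comparison the summed macrophage markers had a ratio of 0.934 and the 10 markers did not pass the test, with 9 of 10 at a negative log2 fold change and a median of -0.22. Most of that sum was Lyz2, at 54192 ± 8794 normalized counts in libraries labelled Trem1-/- and 58049 ± 2943 in young libraries (SD, n = 3 and 4). The ratio of summed B cell markers was 2.19, and 2 of 13 passed as higher (15.4%, beside 0.591% of all genes). What part these markers had in the histone values was not tested. Both comparisons with aged wild-type libraries share those 3 libraries, and both comparisons with young libraries share those 4, so they are not independent of each other. In the comparison with young libraries genotype and age cannot be told apart. With no young Trem1-/- group among the samples, whether the genotype difference depends on age could not be tested.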

How the data were processed

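Per the labels, RNA was extracted with an RNeasy kit, copied into cDNA with a Takara stranded kit and made into libraries with a NEBNext kit. Per the submitters' processing notes, GRCm38 was the build, and DESeq2 1.20.0, featureCounts 1.5.0-p3, STAR and fastp are named. The deposited values are counts normalized by the authors with DESeq2 size factors (a signal per gene). The whole reads behind them were recovered for 100% of values (tolerance 1e-06). The authors also deposited a log2 fold change, a Wald score and a p-value for aged over young wild type, and of 57 clustered histone genes with an adjusted p in the authors' deposited table, 34 were lower and 0 higher.

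Groups were taken from the labels. Values were set to log2(normalized count + 1), genes with a mean of at least 10 kept (11506), and 1 model of 3 groups fitted with limma 3.58.1 (R 4.3.3, trend, Benjamini-Hochberg over all genes, threshold 0.05). Alternatives were pseudocounts of 0.5 and 5, no filter, a mean of at least 50, TMM factors, edgeR 4.0.16 (quasi-likelihood) and DESeq2 1.42.0 on recovered reads, 2 groups only, and each library left out. The script was tested on simulated data. Stem-loops, exon lengths, overlaps and shared runs come from GENCODE transcripts (GRCm38), in which all 69 symbols were found, and promoters from RefSeq. Named with values in every library are the 10 members with the highest mean, those with the 10 largest changes among the called in the first 2 comparisons and, from other lists, the 3 with the smallest p; other names were chosen after their values were seen. The members and lists were chosen with earlier results of these data known. Depth sets a floor of 3 reads, for counting error only.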

Additional observations from a re-analysis of the deposited data

How the results depend on the processing

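No paired analysis was possible because the groups share fewer than 2 replicate numbers, and the young replicates carry letters. For aged wild type against young wild type, the count of 35 lower members stayed within 1.5 times under every alternative except a mean of at least 50, where 22 of 28 tested were lower. It ran from 30 to 37 with 1 library left out, and the count of higher members was 0 in each. All genes then ran from 1170 to 1757 higher and from 1593 to 2414 lower. For aged Trem1-/- against aged wild type, the 3 higher members became 1 with TMM factors, 0 with edgeR and 0 to 6 with 1 library left out. All genes became 726 higher and 445 lower with 2 groups only, and ran from 762 to 1782 higher and from 318 to 1020 lower with 1 library left out. For aged Trem1-/- against young wild type, the 3 lower members became 10 with no filter, 0 with a mean of at least 50, 16 with DESeq2, 10 with 2 groups only and 0 to 12 with 1 library left out. All genes higher and lower became 161 and 102 with no filter, 28 and 8 with a mean of at least 50, 253 and 195 with DESeq2, and 154 and 145 with 2 groups only. They ran from 0 to 157 higher and from 0 to 106 lower with 1 library left out. The causes were not tested, beyond the fewer genes or libraries that some alternatives hold by construction.

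Among the 21 named members, signs turned for Hist1h1c, Hist1h1d, Hist1h1e and Hist1h2be. Aged wild type over young wild type, Hist1h1c was -0.28 without aged wild-type replicate 3, -0.091 without young replicate B and -0.019 without young replicate C, and Hist1h1e was 0.19 without aged wild-type replicate 4. With 1 library left out they ran from -0.28 to 0.29 and from -0.57 to 0.19. Aged Trem1-/- over aged wild type, without aged wild-type replicate 3, Hist1h1c was 0.12, Hist1h1e 0.23 and Hist1h1d 0.16. Hist1h2be was 0.088 without Trem1-/- replicate 2 and 0.040 without aged wild-type replicate 6. The lowest values with 1 library left out were -0.44, -0.53, -0.65 and -0.12 for Hist1h1c, Hist1h1e, Hist1h1d and Hist1h2be. Aged Trem1-/- over young wild type, Hist1h1c was 0.012 without Trem1-/- replicate 2 and ran down to -0.27. Of 1122 alternative values of the 21 named members, 1018 kept their direction and side of the threshold, 57 lost a call, 37 gained one and 10 changed sign. Summed levels over young libraries had ratios of 0.515 to 0.711 for aged wild type and 0.563 to 0.720 for aged Trem1-/- with 1 library left out, and 0.883 to 1.22 for aged Trem1-/- over aged wild type. Of the 22 members under the mean of 10, 16 were tested only with no filter, and the 6 with no read could not be tested.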
